A study of Mus musculus with 2 samples.

Results

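The Id genes (Id1, Id2, Id3) and 5 negative regulators of SMAD signalling (Smad6, Smad7, Bambi, Skil and Tgif1) were followed across the cell types of the adult mouse submandibular gland, a major salivary gland. These 8 genes were chosen by name from the 27998 genes counted, and all 8 had counts in both libraries. The study compared a p63 wild-type (WT) gland with a p63 knockout (KO) gland, both at 12 wk of age, in 1 single-cell library each made with droplet 3' chemistry. p63 is the transcription factor of basal epithelial cells, encoded by Trp63, and the study's title links it to follistatin and to TGF-beta and activin signalling. The labels name the genotypes only as p63 wild type and p63 KO. The allele, the cells or time in which p63 was removed, and the number or pooling of mice are not given there. With 1 library per genotype there is no replicate, so no test was run between the genotypes. Every interval below is an exact 95% interval that covers counting error only.

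BMP and TGF-beta ligands bind pairs of type I and type II receptor kinases, which phosphorylate SMAD proteins that enter the nucleus and switch target genes. Id genes are classical BMP targets. They encode helix-loop-helix proteins without a DNA-binding region, which pair with E proteins and keep them from DNA. The other genes act as brakes at successive steps and are in part themselves induced by the pathway: Bambi is a receptor-like protein without a kinase, Smad6 and Smad7 are inhibitory SMADs that act at the receptors, and Skil (SnoN) and Tgif1 are nuclear co-repressors that bind SMADs. In glands and other epithelia these genes also answer to signals outside this pathway.

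On GRCm38, Id1 lies at chr2:152736251-152737410 on the plus strand, Id2 at chr12:25093799-25097140 on the minus strand and Id3 at chr4:136143497-136145755 on the plus strand. Smad6 lies at chr9:63953076-64022059 (minus), Smad7 at chr18:75367529-75395935 (plus) and Bambi at chr18:3507923-3516404 (plus). Skil lies at chr3:31095058-31122577 (plus) and Tgif1 at chr17:70844205-70853546 (minus). All are annotated as protein coding.

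The WT library held 1970 barcodes and 8811082 unique molecular identifiers (UMIs, the count of captured molecules), and the KO library 4726 barcodes and 11828669 UMIs. Barcodes counted as cells when they had 200 or more genes and mitochondrial UMIs below 20%. This left 1663 (84.4%) in WT and 2423 (51.3%) in KO, with median depths of 3406 and 2088 UMIs. Cells were gated by a score over marker lists that hold none of the 8 genes, which placed 1424 WT and 1926 KO cells. A cell type named below is the range of cells that passed its gate. Both libraries held endothelial cells, macrophages and other non-epithelial cells, although the source label speaks of epithelial progenitors and the protocol of whole gland. Trp63 gave 149 UMIs in 121 WT cells and 20 UMIs in 19 KO cells, or 18.8 and 2.91 CPM (counts scaled to a total of 1000000). In such library totals, fewer cells of a type and less RNA per cell cannot be told apart, and a 3' count does not check a deletion placed elsewhere in the gene. The basal duct gate held 231 WT and 5 KO cells. A wider gate on 2 of its keratins, Krt14 and Krt17, held 339 and 61 cells and was used beside it.

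Id2 and Tgif1 differed in opposite directions between the libraries in granular convoluted tubule cells (values below), so sequence before a RefSeq start of each is shown. It is taken from RefSeq promoters on GRCm38.p6, written 5′ to 3′ on the gene's strand, with bases inside annotated exons left out. The Id2 stretch is chr12:25096254-25096342, bases 250 to 162 before the RefSeq start. This stretch lies inside the annotated Id2 gene, whose 5′ end is at 25097140, outside its exons and not upstream of the gene. Its capitals mark GGCGCC, a GC-rich element bound by SMADs, 231 bases before the start, and an E-box (CANNTG, the site of helix-loop-helix dimers), 196 bases before it. The Tgif1 stretch is chr17:70853547-70853782, bases 250 to 15 before the most upstream of 5 RefSeq starts. Its capitals mark CAGAC, the SMAD box, 201 bases before the start, and an E-box 25 bases before it.
Id2: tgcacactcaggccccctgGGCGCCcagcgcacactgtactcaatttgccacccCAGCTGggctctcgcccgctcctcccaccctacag
Tgif1: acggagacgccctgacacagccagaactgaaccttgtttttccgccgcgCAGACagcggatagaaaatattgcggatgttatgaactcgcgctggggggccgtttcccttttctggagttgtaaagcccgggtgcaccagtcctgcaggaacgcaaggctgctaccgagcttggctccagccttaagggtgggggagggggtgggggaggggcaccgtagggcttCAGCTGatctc

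Both strands were searched over the 250 bases before each start, and the motifs in these 2 stretches do not overlap. Of 32851 promoters searched in the same way, 42.2% held CAGAC, 9.59% GGCGCC, 66.2% an E-box and 32.7% the GC box GGGCGG. The Id3 window held 2 copies of CAGAC and 2 of GGGCGG, with no GGCGCC and no E-box. All 250 bases of this window lie in annotated exon of Id3 itself, so it is not printed. The Smad6 window held 4 copies of GGGCGG and none of the other motifs. The Id2 window also held 1 GGGCGG, 16 bases before the start. Of the other Tgif1 windows, that from 70851685 held 2 CAGAC and 3 E-boxes, and that from 70851161 held 5 GGGCGG only. The one from 70849741 held 1 CAGAC and 1 GGGCGG, and the one from 70846728 held 2 E-boxes. A 3' count does not show which start was used. The palindromic SMAD element GTCTAGAC, found in 0.167% of promoters, was in none of the windows searched for Id2, Id3, Smad6 and Tgif1. Matches are letters in a window, not measured binding. Id1, Skil, Smad7 and Bambi had no entry in the promoter table.

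Across each whole library, Id2, Id3 and Tgif1 gave the most UMIs of the 8 genes and Smad6 the fewest. UMIs here count 3' ends and were not scaled by gene length, so levels below are compared between cell types, not between genes. Id2 gave 2313 UMIs in WT and 2015 in KO, Id3 1746 and 2711, and Tgif1 1518 and 1892. Skil gave 631 and 693, Smad7 435 and 407, and Id1 233 and 332. Bambi gave 164 and 168 and Smad6 19 and 50. The share of kept cells with at least 1 UMI ran from 1.14% (Smad6) to 53.9% (Id2) in WT and from 1.90% (Smad6) to 42.1% (Tgif1) in KO. These totals mix cell types in different proportions, so the cell types are described one at a time. Levels are put in order over cell types with at least 20 cells of a library, and smaller types are given with their number of cells.

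Id1, a BMP target studied widely in endothelium, was highest in endothelial cells. Its level there was 506 CPM (358 to 694) in the 27 WT cells and 246 CPM (201 to 299) in the 241 KO cells. In WT the next level, 73.9 CPM in basal duct cells, lay below that interval. In KO, fibroblasts had the same level within error (245.9 CPM, 158 to 366), and the ionocyte-like duct cells came next at 72.0 CPM (26.4 to 157). Acinar cells, which make most of the saliva proteins, held Id1 at only 4.04 CPM in WT and 8.28 CPM in KO, and granular convoluted tubule cells at 5.79 and 9.81. Id1 was seen in none of 33 KO cells of the T, NK or innate lymphoid gate, which allows a share of cells with a UMI of up to 9.09%.

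Id1 also varied within the endothelial cells. In KO, the 26 cells without a detected UMI of Plvap, a gene of fenestrated capillaries, had 619 CPM of Id1 (408 to 901), and the 215 cells with Plvap had 203 CPM (160 to 254). This split was chosen after the values were seen. In WT the same split gave 1195 CPM in 4 cells and 367.5 CPM in 23. In both libraries the cells without Plvap were the higher ones. Because the split was chosen from these values, the gap between its intervals is no support for it. Among the KO cells without Plvap, the 11 with a UMI of Cldn5, another endothelial marker, had 454 CPM (218 to 835). That interval overlaps the one of the cells with Plvap. A single KO endothelial cell held 16 of the 103 Id1 UMIs.

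Id3, a close relative of Id1 and likewise a BMP target, had its peak in KO fibroblasts at 3473 CPM (3113 to 3863), with a UMI in 79.3% of 58 cells. The 6 WT fibroblasts stood at 1527 CPM (997.5 to 2237). In WT, endothelial cells were the highest type with at least 20 cells, at 1597 CPM, and in KO they came second at 956 CPM. Id3 was seen in 26 of 27 and 126 of 241 of them. The 8 KO pericyte or smooth muscle cells held 2106 CPM (1421 to 3006). Among epithelial cells the ducts differed from one another. WT basal duct cells held 735 CPM (683 to 789) and Cldn4 duct cells 364 CPM in WT and 667.5 in KO, while intercalated duct cells held 63.2 and 133.5 and acinar cells 22.9 and 7.36. Some sums rested on few cells: the 60 Id3 UMIs of the KO myoepithelial gate came from 7 of 53 cells, with 30 in a single cell, and 1 KO Cldn4 duct cell held 80 of that type's 598 UMIs.

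Id2 had another pattern from its relatives. Among types with at least 20 cells it was highest in macrophage or dendritic cells, at 764 CPM (630 to 917) in the 57 WT cells and 1493 CPM (1365 to 1631) in the 199 KO cells. Intercalated duct cells, which connect acini to the larger ducts, were the highest epithelial type, at 594.5 CPM in WT and 467 in KO. In WT their interval overlapped that of the macrophages. T, NK or innate lymphoid cells, in which Id2 is known as a regulator of innate lymphoid development, held 581 CPM in 33 KO cells. The 19 WT cells of this type, too few to be ranked, held 1467 CPM (1148 to 1847.5), above the WT macrophages, with 23 of the 72 UMIs in a single cell. Basal duct cells, high in Id3, were low in Id2, at 132 CPM in WT.

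**Figure D1:**
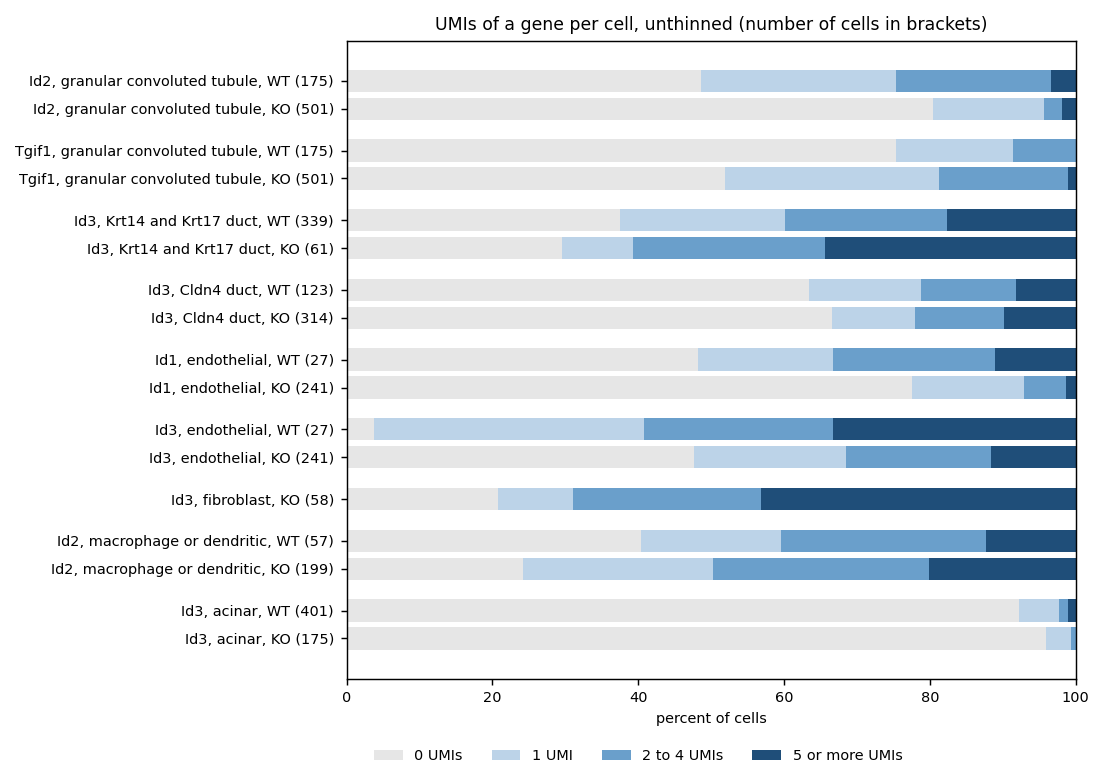
Share of cells (x axis, percent) holding 0, 1, 2 to 4, or 5 or more UMIs of a gene, for the gene and cell type pairs the text turns on, unthinned, with the number of cells in brackets. In granular convoluted tubule cells 85 of 175 WT and 403 of 501 KO cells had no Id2 UMI, while 132 of 175 WT and 260 of 501 KO cells had no Tgif1 UMI.

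Of the 2 inhibitory SMADs, Smad6 was seen in few cells of any type. Smad6, which acts mainly on BMP receptors, gave 14 UMIs in KO endothelial cells (33.5 CPM, 18.3 to 56.1) and 8 UMIs in the 29 KO adipocytes (62.95 CPM, 27.2 to 124), and these intervals overlapped. WT endothelial cells held 1 Smad6 UMI. Smad6 was seen in 0 of 57 WT and 0 of 199 KO macrophage or dendritic cells, which allows shares of cells with a UMI of up to 5.26% and 1.51%. Red-cell barcodes, which should carry little but globin RNA of their own, had Smad6 in 1.205% (WT) and 3.85% (KO) of barcodes, against 4.98% of KO endothelial cells. Their median depth outside globin was 1107.5 UMIs in KO, against 1522 in the endothelial cells. At this depth the KO endothelial share was not distinguishable from that of the red-cell barcodes, while 20.7% of the adipocytes (median 4406 UMIs) held Smad6. The KO red-cell share rested on 52 barcodes, which also held endothelial markers (824 CPM in sum, 0 of 12 at 0) and may hold endothelial RNA. Against the other gated KO cells, endothelial Smad6 stood at 6.85-fold (3.29 to 13.7), with too few UMIs for the size rule given below.

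Smad7, the inhibitory SMAD that acts on both TGF-beta and BMP receptors, was spread more evenly. It stood at 160 CPM in WT and 134 CPM in KO endothelial cells, at 109.5 and 81.5 in Cldn4 duct cells, and at 73.2 and 90.8 in intercalated duct cells. In WT the intervals of the 4 highest types with at least 20 cells overlapped from one to the next. T, NK or innate lymphoid cells had the highest value in both libraries, at 367 CPM (217 to 580) from 18 UMIs in 19 WT cells and 194 CPM (88.6 to 368) from 9 UMIs in 33 KO cells. The low end was again the acinar cells, at 7.41 CPM in WT and 20.2 in KO, and Smad7 was seen in none of the 40 KO ionocyte-like duct cells, which allows up to 7.50% of cells with a UMI.

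Bambi, the kinase-less receptor decoy, was highest in endothelial cells, at 79.9 CPM (29.3 to 174) in WT and 129 CPM (97.0 to 168) in KO. In WT this rested on 6 UMIs, and its interval overlapped that of basal duct cells (34.5 CPM). In KO it rested on 54 UMIs, against 13 in acinar and 6 in granular convoluted tubule cells. Its KO interval overlapped those of T, NK or innate lymphoid cells (86.1 CPM, 23.5 to 220) and myoepithelial cells (63.1 CPM, 27.2 to 124). With joint clusters, the KO T, NK or innate lymphoid cluster stood at 93.4 CPM and the larger endothelial cluster at 81.1 CPM. Basal and intercalated duct cells formed a middle level in WT, at 34.5 and 31.6 CPM.

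The 2 co-repressors differed from each other. Skil was highest in macrophage or dendritic cells, at 275 CPM in WT and 464 (393 to 543) in KO. In WT, Cldn4 duct (209 CPM) and basal duct cells (157 CPM) followed with overlapping intervals. In KO, T, NK or innate lymphoid cells followed at 366 CPM (213 to 586), which overlaps the macrophage interval. By joint clusters, Skil in WT stood at 211.5 CPM in the T, NK or innate lymphoid cluster and 178.5 in the macrophage or dendritic cluster. Tgif1 was highest in Cldn4 duct cells, a duct class gated on Cldn4, F3 and other genes, at 638 CPM (564 to 719) in WT and 570 CPM (522 to 622) in KO. The 5 KO basal duct cells held 1064 CPM (531 to 1904) from 11 UMIs. WT basal duct cells came second for Tgif1, at 485.5 CPM, and WT acinar cells last, at 42.1 CPM. With joint clusters in place of gates the order of the first 2 turned in WT, with the basal duct cluster at 511 and the Cldn4 duct cluster at 398 CPM.

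Each cell type with at least 50 cells was then set against all other gated cells of its own library, red-cell barcodes left out. A gene was called past the size rule when the 2 sums held at least 50 UMIs and the interval of their ratio lay wholly beyond 2-fold. Smad6 had too few UMIs in either library, so 7 of the 8 genes were compared. In KO endothelial cells 3 of 7 passed on the higher side, Bambi at 8.05-fold, Id1 at 7.78-fold and Id3 at 3.13-fold, where 7.67% of all 7744 genes did so. In KO fibroblasts Id3 (11.6-fold) and Id1 (5.55-fold) passed on the higher side, against 3.02% of genes, and Tgif1 on the lower side at 0.229-fold, against 1.99%. In macrophage or dendritic cells Id2 and Skil passed in both libraries, at 2.72- and 3.87-fold in WT (background 4.45%) and 7.19- and 6.48-fold in KO (background 6.83%).

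Among the epithelial types, WT basal duct cells had 4 of 7 genes past the rule on the higher side, Id3 at 6.45-fold, Id1 at 3.94-fold, Tgif1 at 3.91-fold and Skil at 2.57-fold, with a background of 8.43%. Id2 passed there on the lower side at 0.411-fold (background 4.24%). Cldn4 duct cells had Tgif1 past the rule in both libraries, at 4.30-fold in WT and 2.77-fold in KO, beside Skil in WT (3.15-fold, background 3.36%) and Id3 in KO (2.27-fold, background 1.29%). In WT intercalated duct cells Id2 was 2.64-fold higher (background 13.2%) and Id3 0.263-fold, on the lower side (background 2.60%). Acinar cells had 6 of 7 genes lower in WT and 5 of 7 lower in KO, but 48.5% and 23.2% of all genes were lower there. The 9 acinar markers alone summed to 452972 CPM in WT and 384632 CPM in KO acinar cells. In KO granular convoluted tubule cells 4 of 7 were lower (background 9.19%), Bambi at 0.147-fold, Id1 at 0.164-fold, Id3 at 0.309-fold and Id2 at 0.371-fold. In KO, Id2 of myoepithelial cells (0.190-fold, background 1.32%) and Id3 of intercalated duct cells (0.333-fold, background 5.63%) also lay past the rule on the lower side.

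The KO and WT libraries were compared gene by gene in 8 cell types. Of the 64 pairs of a gene and a cell type, 40 had at least 50 UMIs and 3 passed the size rule, 2 of them higher and 1 lower in KO. Over all genes the share that passed in these 8 cell types ran from 1.14% to 10.6%. The 3 pairs that passed were Id2 and Tgif1 in granular convoluted tubule cells and Id3 in Krt14 and Krt17 duct cells.

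Granular convoluted tubule cells secrete kallikreins and the growth factor EGF, and this gate held 175 WT and 501 KO cells. Id2 had 185 UMIs in WT and 165 in KO, or 357 CPM (307 to 412) and 124.5 CPM (106 to 145). The KO level was 0.349 of the WT level (0.281 to 0.433), and 51.4% of WT and 19.6% of KO cells held a UMI. After each cell was thinned to 1000 UMIs the shares were 23.4% and 10.4%. Tgif1 was the higher one in KO, with 60 UMIs in WT and 405 in KO, or 116 CPM (88.3 to 149) and 305.5 CPM (276.5 to 337). The KO level was 2.64 times the WT level (2.01 to 3.52), and the share of cells with a UMI was 24.6% in WT and 48.1% in KO, or 9.71% and 23.6% after thinning. Thus 2 of the 5 genes compared passed the rule, against 2.92% of all 3767 genes. The other 3 had intervals that include equal levels: Id3 at 1.02 (0.762 to 1.37), Skil at 1.02 (0.668 to 1.60) and Smad7 at 0.679 (0.375 to 1.26).

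Several measurements moved with these tubule values. Most WT tubule cells (133 of 175) lay in a joint cluster led by Klk1b22, and most KO ones (389 of 501) in another led by Crisp3 and Klk1b4. A further 14 WT and 73 KO cells lay in an unnamed cluster led by Foxi1 and Hepacam2. Restricted to gated cells in clusters named as granular convoluted tubule, the ratios were 0.301 for Id2 and 3.37 for Tgif1. These were 133 WT and 5 KO cells of the Klk1b22 cluster and 7 WT and 389 KO cells of the Crisp3 cluster. The restricted ratios therefore still compare mostly different clusters. Median depth was close, 2689 UMIs in WT and 2591 in KO, with 8 and 28 cells near the edge of the gate. The Tgif1 interval reached inside 2-fold with a stricter gate (lower bound 1.93), after thinning (1.77) and with a scaling that leaves out the most abundant genes (1.99), and that of Id2 after thinning (0.470, upper bound 0.679). The 9 acinar markers summed to 15541 CPM in WT and 3541 in KO tubule cells (1 of 9 at 0 in each), and 23 dissociation stress genes to 27622 and 35196 CPM (none at 0). Their part in the result was not tested.

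Free RNA sets a floor for such low levels. Red-cell barcodes held Id2 in 34.9% (WT) and 17.3% (KO) and Tgif1 in 24.1% and 26.9% of barcodes, at median depths of 1737 and 1107.5 UMIs outside globin. The KO tubule share of Id2 and the WT tubule share of Tgif1 were thus close to those of the red-cell barcodes, which may also hold RNA of other cells. The lowest Id2 level of a KO cell type with at least 20 cells was 55.2 CPM (myoepithelial, 22.2 to 114, from 7 UMIs). Its interval overlaps that of the KO tubule cells (106 to 145). The lowest WT level of Tgif1 was 42.1 CPM (acinar). Acinar markers took 452972 CPM in those cells, so the CPM of other genes is lower there. Both tubule levels lay above these, but neither value measures free RNA. The part of free RNA in the tubule levels was not tested.

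**Figure D2:**
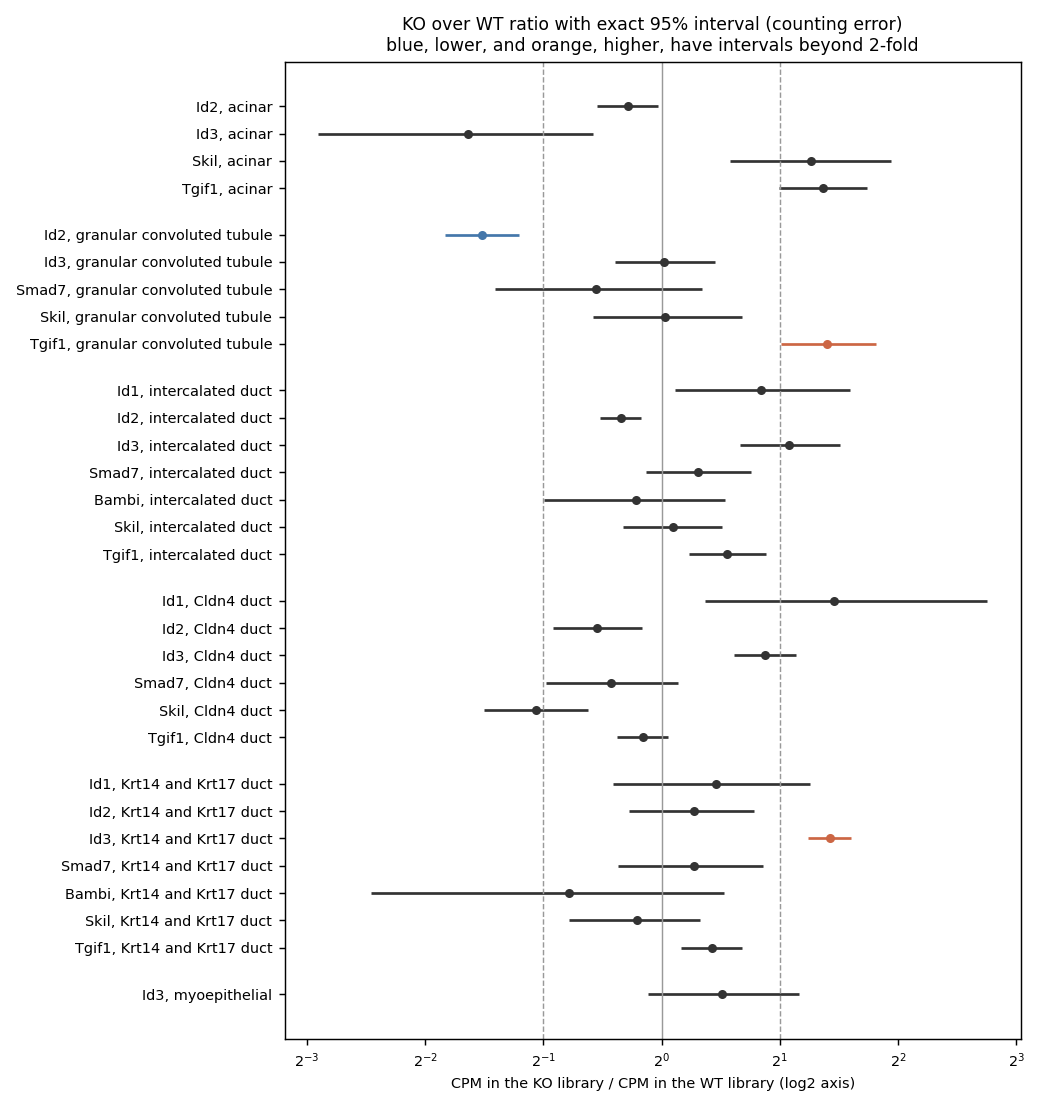
Ratio of the CPM in the KO library to that in the WT library (x axis, log2 scale) with its exact 95% interval, for gene and cell type pairs with at least 50 UMIs; dashed lines mark 2-fold, and basal duct and macrophage or dendritic cells are left out. Id2 (blue, 0.349) and Tgif1 (orange, 2.64) of granular convoluted tubule cells and Id3 (orange, 2.68) of Krt14 and Krt17 duct cells lie wholly beyond the dashed lines.

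In Krt14 and Krt17 duct cells, the keratin-positive duct cells compared because the basal gate was nearly empty in KO, Id3 was higher in KO. This gate shares cells with others: 205 of the WT and 4 of the KO cells were also gated as basal duct, and 49 and 39 as Cldn4 duct cells. Id3 had 883 UMIs in 339 WT cells and 357 UMIs in 61 KO cells, or 589 CPM (551 to 629.5) and 1580 CPM (1421 to 1753). The ratio was 2.68 (2.37 to 3.04). The median cell held 1 Id3 UMI in WT and 3 in KO, the highest 24 and 34, and 60 WT and 21 KO cells held 5 or more. The share of cells with Id3 was 62.5% in WT and 70.5% in KO, and 35.4% and 59.0% after thinning. Id3 was 1 of 7 genes compared that passed the rule, against 3.19% of all 3634 genes. Tgif1, at 495 and 664 CPM, was below 2-fold (1.34, 1.12 to 1.60), and Id1, Id2, Smad7, Skil and Bambi had intervals that include equal levels.

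The cells compared were not alike in other respects. Of the 339 WT cells, 292 lay in a cluster led by Ptn, Krt14 and Krt15, and of the 61 KO cells, 52 lay in a cluster led by Ctsl, Myc, F3 and Cldn4. The median score of the basal duct list was 0.37 in WT and 0.195 in KO, and that of the Cldn4 duct list 0.255 and 0.301. Of the WT cells 3 and of the KO cells 5 were at the gate's minimum of keratin UMIs. With the stricter gate the ratio was 2.16 (lower bound 1.86) and with TMM scaling 2.26 (lower bound 1.99). TMM moved the median of all genes from 0.06 to -0.16 (log2). Stress genes summed to 28958 and 48923 CPM, and ribosomal protein genes took 32.4% and 24.1% of UMIs. Whether the difference in Id3 lies within 1 kind of cell or between kinds was not tested.

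The remaining comparisons passed no gene. In acinar cells (background 7.78%) Tgif1 was at 42.1 and 109 CPM in WT and KO, a ratio of 2.58 (1.99 to 3.35) that stopped just short of the rule, Skil at 2.40 (1.49 to 3.85) and Id3 at 0.321 (0.133 to 0.670). The Id3 value rested on 68 and 8 UMIs. In intercalated duct cells (background 3.92%) Id3 was at 63.2 and 133.5 CPM, a ratio of 2.11 (1.58 to 2.85), Id1 at 1.79 (1.08 to 3.02), Tgif1 at 1.47 (1.17 to 1.85) and Id2 at 0.786 (0.697 to 0.886). These 4 intervals exclude equal levels and reach inside 2-fold. A single KO cell held 44 of the 128 Id3 UMIs and a single cell 15 of the 40 Id1 UMIs, a spread between cells that the intervals do not cover. Of these cells 188 of 244 in WT lay in a cluster led by Esp4 and Dcpp1, and 153 of 212 in KO in one led by Glul and Wfdc18.

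In Cldn4 duct cells (background 3.13%) 0 of 6 genes passed. Id3 stood at 364 CPM in WT and 667.5 in KO, Id1 at 19.0 and 52.5, Skil at 209 and 100.5 and Id2 at 238 and 163. Of the 123 WT cells 74 lay in the cluster led by Ptn, Krt14 and Krt15, while 162 of the 314 KO cells lay in the one led by Ctsl and Cldn4 and 80 in one led by Foxi1, so the levels are given side by side and their ratios compare cells of different clusters. The same holds for macrophage or dendritic cells (background 10.6%, 0 of 4 passed), where 50 of 57 WT cells lay in a cluster led by MHC class II and C1q genes and 198 of 199 KO cells in one led by Ccl3 and S100a8. In myoepithelial cells, the contractile cells around acini, only Id3 had enough UMIs (background 7.13%), at 331 CPM in 26 WT and 473 CPM in 53 KO cells. In basal duct cells, with 5 in KO, 0 of 6 passed (background 1.14%).

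The other genes of the pathway were read in the same cells from lists of ligands, receptors, SMADs, inhibitors and targets. In granular convoluted tubule cells 1 TGF-beta ligand, 3 receptors, 3 SMADs, 2 extracellular inhibitors, 5 intracellular regulators, 5 targets and 3 E proteins or partners had enough UMIs, and none passed the rule. The median log2 ratio was 0.23 for the targets and 0.18 for the intracellular regulators, against 0.11 for all genes compared. Tgfb2, a TGF-beta ligand, stood at 125 and 57.3 CPM in WT and KO, the type I receptor Tgfbr1 at 55.9 and 100.3, and Smad1, which carries BMP signals, at 38.6 and 34.7. Hes1, a helix-loop-helix repressor, stood at 229.5 and 127.5 CPM. Of the 23 stress genes 3 passed on the higher side, Ier3, Zfp36 and Socs3, at 3.08, 2.91 and 3.36 times the WT level. Over all genes 2.92% passed there in either direction.

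In Krt14 and Krt17 duct cells 1 of 5 extracellular inhibitors compared passed, against 3.19% of all genes. It was Sostdc1, a secreted BMP antagonist, with 118 UMIs in WT and 1 in KO (ratio 0.0562, 0.00141 to 0.319). Sostdc1 was also past the rule on the higher side in WT basal duct cells against the other WT cells. Of the cells compared here, 205 in WT and 4 in KO were gated as basal duct, and most lay in different clusters. Whether the Sostdc1 difference lies within 1 kind of cell was not tested. None of the ligands, receptors, SMADs, other intracellular regulators, targets and E proteins compared there passed, and Junb, an immediate early gene and TGF-beta target, stood at 1317 and 2373 CPM. The 6 targets had a median log2 ratio of 0.67, the 9 intracellular regulators 0.39 and the 23 stress genes 0.76, against 0.06 for all genes. In Cldn4 duct cells Tgfb2 (278 and 82.6 CPM, ratio 0.297) and Pmepa1 (131 and 26.8 CPM, ratio 0.205), a TGF-beta-induced inhibitor of SMAD signalling, passed on the lower side, in cells drawn from different clusters as above. They were the 1 TGF-beta ligand and 1 of 7 intracellular regulators compared, against 3.13% of all genes. In acinar cells Ppm1a, a SMAD phosphatase (3.33), and the cell cycle inhibitor Cdkn1a (4.14) passed on the higher side. They were 1 of 5 intracellular regulators and 1 of 5 targets, against 7.78% of all genes. The median acinar gene was itself at 0.28 (log2). In myoepithelial cells Ccn1 (2.59) and Junb (2.60) passed on the higher side, 2 of 4 targets, against 7.13% of all genes. The stress genes there summed to 44777 CPM in WT and 91562 in KO.

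In KO endothelial cells, the ranked type with the highest values of Id1 and Bambi, the other genes of the pathway were read as well. Against the other KO cells 7.67% of all 7744 genes passed on the higher side, and 5 of 11 receptors compared did so. They were the co-receptor Eng (65.2-fold), the type I receptor Acvrl1 (13.3-fold), Tgfbr3 (7.75-fold), the BMP type II receptor Bmpr2 (7.69-fold) and Tgfbr2 (5.32-fold). Of the targets 7 of 11 passed, with Hey1 at 14.7-fold and Cdkn1a at 8.14-fold, and so did the E protein gene Tcf4 at 5.92-fold. Of the 4 receptor-regulated and common SMADs compared none passed. In KO fibroblasts, the peak of Id3, 2 of 4 inhibitors passed, Fst (follistatin, which binds activin) at 38.3-fold and Nbl1 (a BMP antagonist) at 11.1-fold, and the receptor gene Tgfbr3 at 9.48-fold. Over all genes 3.02% passed on the higher side in these fibroblasts, and Fst stood at 225 CPM. In endothelial cells 8 of 23 stress genes also passed on the higher side, Klf2 at 17.05-fold and Hspa1a at 3.75-fold. Junb counts among both the targets and the stress genes. The part of the receptors and of the stress genes in the Id1 and Bambi levels was not tested.

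**Figure D3:**
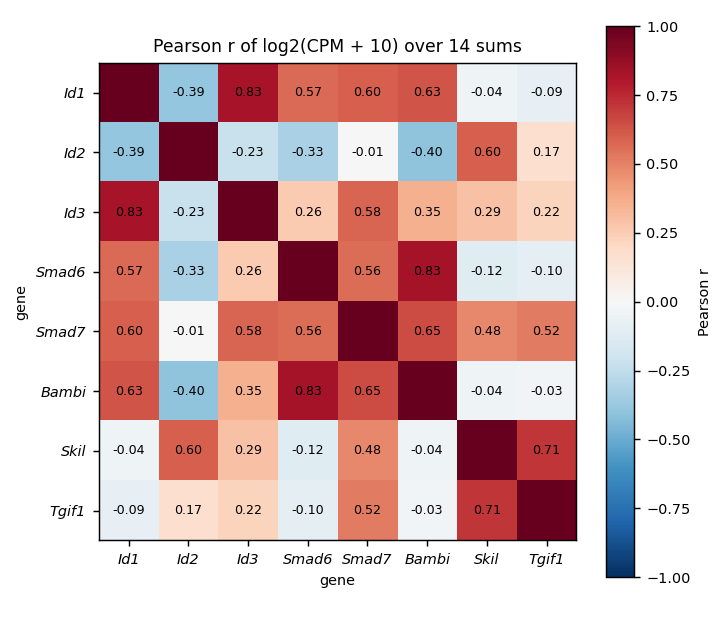
Pearson r of log2(CPM + 10) between each pair of the 8 genes over 14 sums of a cell type in a library with at least 50 cells (color scale, -1 to 1). Id1 with Id3 and Smad6 with Bambi stand at 0.83 and Skil with Tgif1 at 0.71, while Id1 with Id2 stands at -0.39.

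The 14 sums of a cell type in a library with at least 50 cells show which of the genes went together across types. Id1 and Id3 had a Pearson r of 0.83 on the log2(CPM + 10) scale, Smad6 and Bambi 0.83, and Skil and Tgif1 0.71. Id2 stood apart from Id1 (-0.39) and Id3 (-0.23) and was nearest to Skil (0.60). These sums share 2 libraries and differ in depth from 97611 to 2968942 UMIs, so r is a description of these points. Smad6 gave 0 to 14 UMIs in a sum. Among 7361 genes searched, those most like Id1 were Mgp, Osmr and Slco2a1 (0.93 each), and those most like Bambi were Rflnb (0.96), Foxo1 (0.89) and Uvssa (0.89). Skil went with Cxcl16 and Sub1 (0.96 each) and Rab20 (0.94), and Id2 with Osgin2 (0.91), Lyn and Pea15a (0.88 each). Id3 went with Nrbp1 (0.91), Rbms1 (0.90) and Snu13 (0.89), Smad7 with Ahctf1, Myl12a (0.95 each) and Myh9 (0.94), and Tgif1 with Cct2 (0.91), Gm20186 and Fbxo30 (0.90 each). Smad6 had under 100 UMIs and was not searched.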

How the data were processed

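The deposited values are UMI counts per gene and barcode, 1 table for each library. The submitters' processing notes list the mm10 build, Seurat 3.1.2, bcl2fastq 2.19.1 and Cell Ranger 2.1.0. Order and settings are not given in the sources used here. Of 27998 Ensembl IDs 27645 matched a symbol. The genes, lists and marker gates were chosen with earlier results of these data known. The rule names all 8 genes in every cell type, of which the text prints those its comparisons use and the plots show the rest. From each pathway list the genes past the size rule and the 3 with the most UMIs are named, in part. For likeness it names the 3 genes with the highest r.

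A cell was gated where its best marker score was at least 0.2 and led the next by 0.05. A red cell had at least 10% globin UMIs, and the Krt14 and Krt17 gate required both genes, at least 3 UMIs of them together and a basal score above the myoepithelial one. Cells within 0.02 of a score limit count as near the edge. No doublet caller was run, and cells with close scores stayed ungated (239 WT, 497 KO). The 2 libraries shared 11 barcodes. UMIs were summed per cell type and library and scaled to CPM, for red cells without globin. Thinning to 1000 UMIs left out 0 cells. The deposited tables start at 2175 UMIs per barcode in WT and 1076 in KO. Python 3.11.15, numpy 2.4.6, scipy 1.17.1, scanpy 1.11.5, leidenalg 0.10.2 and edgeR 4.0.16 (TMM factors only, in R 4.3.3) were used, and the size rule was tested on simulated data. Alternatives were the filter on cells, clusters in place of gates, a stricter gate, thinning, 2 other scalings, the UMI minimum and the value added before log2. The Krt14 and Krt17 gate, the restriction to clusters of the same name and the Plvap split were chosen after seeing the data. Shares have exact Clopper-Pearson and levels exact Poisson intervals, and where no cell had a UMI the limit is 3 counts over the number of cells.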

Additional observations from a re-analysis of the deposited data

Results flagged for a closer look

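Id2 in macrophage or dendritic cells had a KO over WT ratio of 1.96, while in granular convoluted tubule cells it was lower in KO at 0.349. Id3 in acinar cells had a ratio of 0.321, from 68 UMIs in WT and 8 in KO, while in Krt14 and Krt17 duct cells it was higher in KO at 2.68. In each case the intervals lie on opposite sides of equal levels, with 1 library per genotype, and the difference between the cell types was not tested. In the macrophage or dendritic, tubule and Krt14 and Krt17 duct gates most WT and KO cells lay in different clusters, as given above.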

How the results depend on the processing

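No paired analysis was possible because the labels give 1 sample per genotype. Of the 40 pairs compared, 3 passed the size rule, against 4 of 40 with no filter on cells, 2 of 40 with the other scaling and 3 of 40 with TMM. Other settings compared other numbers of pairs: 6 of 36 passed with joint clusters in place of gates, 1 of 29 with the stricter gate, 1 of 21 after thinning, 3 of 34 with the stricter filter, 3 of 47 with at least 20 UMIs and 3 of 18 in clusters of the same name. No ratio that passed turned its direction where it could be computed. Tgif1 in tubule cells no longer passed with the stricter gate (2.60, lower bound 1.93), after thinning (2.94, lower bound 1.77) or with the other scaling (2.62, lower bound 1.99). Id2 there no longer passed after thinning (0.470, upper bound 0.679), where fewer UMIs are left. Id3 in Krt14 and Krt17 duct cells no longer passed with the stricter gate (2.16, lower bound 1.86) or TMM (2.26, lower bound 1.99). The cause was not tested. The stricter filter on cells left too few tubule cells to compare. With joint clusters Tgif1 in acinar cells (3.17), Id3 in basal duct (7.59) and Cldn4 duct cells (15.6) and Id2 in Cldn4 duct cells (0.369) also passed. The basal duct cluster held 3 KO cells, and the Cldn4 duct cells were 36 WT and 24 KO cells of a cluster led by Duox2 and 16 and 274 of one led by Ctsl, so these ratios set different clusters side by side. Past the rule were also Tgif1 (2.67) in acinar and Id3 (2.73) in Cldn4 duct cells with the stricter filter, Tgif1 in acinar cells (2.63) with no filter and Id3 in acinar cells (0.234) with TMM. Of the 16 highest cell types (8 genes in 2 libraries), 8 kept their place with joint clusters, and 14 or 15 under the other settings run. The joint cluster with most KO macrophage or dendritic cells has no name, which bears on the KO levels of that type. In WT the T, NK or innate lymphoid cluster (44 cells, against 19 gated) lay above the macrophage or dendritic cluster for Id2 (944 and 704 CPM) and Skil (211.5 and 178.5). It also lay above the larger endothelial cluster for Smad7 (219 and 125 CPM). The WT change for Tgif1 is given above. Of the 21 most like genes, 13 stayed with 50 CPM added before log2. The median gene was at 0.28 (log2, KO over WT) in acinar cells and -0.02 with the other scaling.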
